A study of Mus musculus with 2 samples.

Results

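DEAD-box RNA helicases were followed in sorted mouse microglia through 10 genes, Eif4a1, Eif4a2, Eif4a3, Ddx3x, Ddx5, Ddx17, Ddx6, Ddx21, Ddx24 and Ddx39b, among the 32285 genes measured. The genes were matched by symbol, each to 1 row of the count table. They were chosen with measured values of the same cells in view, namely their RNA in tamoxifen and oil samples and in cells with much or no detected immediate early RNA. Values of the members in those contrasts are therefore a description. The number of members past the threshold of the all-gene fit stands once beside the share of all genes, and nothing is read from it.

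DEAD-box proteins use ATP to pry apart short RNA duplexes and to clamp onto RNA, and they carry a conserved aspartate-glutamate-alanine-aspartate motif or a close variant of it. They act at nearly every step in the life of an RNA, from transcription and splicing through nuclear export and translation to storage and decay. Microglia, the resident macrophages of the brain, answer stimuli with rapid changes in transcription, and translation and decay of those transcripts pass through enzymes of this family.

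The TAM group came from mice treated with tamoxifen (TAM), an estrogen receptor ligand that moves the CreERT2 recombinase into the nucleus, for 4 weeks, and the oil group from mice given oil. Both groups were heterozygous for the Cx3cr1CreERT2(Litt) allele, in which CreERT2 is expressed from the Cx3cr1 locus of microglia and other myeloid cells, and the mice were 12 weeks old. The sort kept CD11b+ CD45+ cells without Ly6G or CD206 from perfused brains, and 10 hashtags, antibody-borne oligonucleotide labels named TAM1 to TAM5 and Oil1 to Oil5, marked the cells of 1 droplet pool. Whether each hashtag is a separate mouse is not stated in the labels, and the p-values below therefore reflect variation among hashtags, part of which may be technical. A tamoxifen group lacking Cre was not analysed here, so TAM and recombinase activation cannot be told apart.

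The 10 hashtags held 590 to 907 microglia-like cells each, 7604 in all, with 2963765 to 4803461 unique molecular identifiers (UMIs, 1 tag per captured RNA molecule) per hashtag and a median of 4881 to 5086 UMIs per cell. The median microglial marker was detected in 93.0% to 100% of the cells of each of the 6 clusters used. Of the 9975 barcodes, 1737 (17.4%) carried more than 1 hashtag and were left out. Summed CPM (UMIs scaled to a common library total) of 8 monocyte markers was 7.05 to 14.2 in TAM hashtags and 5.66 to 12.3 in oil hashtags. Of these, Ly6c2 and Chil3 were at 0. For 6 neutrophil markers it was 364 to 438 in TAM hashtags and 361 to 440.1 in oil hashtags. S100a8, S100a9, Retnlg and Ly6g were at 0, so the neutrophil sum came from Csf3r and Cxcr2. The summed CPM of 4 astrocyte markers was 290 to 319 in TAM hashtags and 258 to 332 in oil hashtags. That of 7 markers of macrophages at the borders of the brain was 6.64 to 21.9 in TAM hashtags and 3.58 to 13.9 in oil hashtags, with Cd163 and Ms4a7 at 0. Summed CPM of 4 dividing-cell markers was 19.3 to 113 in TAM hashtags and 3.52 to 19.1 in oil hashtags, and its part in the results was not tested. RNA of 4 Y-linked genes and of Xist marked TAM3 to TAM5 and Oil3 to Oil5 as female and TAM1, TAM2, Oil1 and Oil2 as male; the labels give no sex. Immediate early RNA, the summed CPM of Fos, Egr1, Ier2, Dusp1 and Atf3, set Oil1, Oil2 and Oil3 apart. It was 129, 111, 57.7, 32.4 and 30.05 CPM in TAM1 to TAM5, against 1124, 604, 529.7, 292 and 154 CPM in Oil1 to Oil5.

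Ddx3x is X-linked (chrX:13280970-13294052 on the plus strand, GRCm38, GENCODE M21) and has a Y-linked homologue, Ddx3y (chrY:1260771-1286629 on the minus strand). The remaining 9 genes are autosomal, with Eif4a1 at chr11:69666936-69672423 on the minus strand, Ddx5 at chr11:106780355-106789185 on the minus strand and Ddx17 at chr15:79527736-79546741 on the minus strand. Several members are paralogues. Coding sequences were 84.0% identical between Ddx3x and Ddx3y, 78.2% between Eif4a1 and Eif4a2, 67.1% between Ddx5 and Ddx17 and 66.7% between Eif4a1 and Eif4a3. The libraries count tags near the 3′ end, where reads of most members are separable. No stretch of 50 bases in the last 500 bases of the Ddx3x, Ddx5, Ddx6, Ddx17, Ddx21, Ddx24, Ddx39b or Eif4a1 transcript was found in another gene. In Eif4a2 50.6% of such stretches were shared with the pseudogene Gm2999, and in Eif4a3 29.3% with Gm5576, Gm5580 or Gm8994. Values of Eif4a2 and Eif4a3 are therefore uncertain, and Eif4a2 also overlaps the opposite-strand gene Rfc4 by 194 bases. Ddx6 and Ddx24 overlap same-strand loci of unknown status (E030022I16Rik and Gm47260) by 2766 and 3105 bases, so their tags could be split.

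The promoters of the 4 members with the widest log2 fold between treatments are shown. Each runs from 250 bases before the annotated start of the gene to 50 bases after it (RefSeq, GRCm38.p6), and 9 of the 10 members, all but Ddx6, had an entry. For Ddx5 and Ddx17, which had 3 and 2 entries, the first whose window covers the annotated start was taken. Capitals mark matches to the motifs searched on both strands. In Ddx3x (chrX:13280772-13281071, plus strand), Ddx17 (chr15:79546692-79546991, minus strand) and Eif4a1 (chr11:69672374-69672673, minus strand) they mark the core of the cyclic AMP response element, TGACG, and in Ddx5 (chr11:106789136-106789435, minus strand) an EGR motif, GCGNGGGCG.
Ddx3x: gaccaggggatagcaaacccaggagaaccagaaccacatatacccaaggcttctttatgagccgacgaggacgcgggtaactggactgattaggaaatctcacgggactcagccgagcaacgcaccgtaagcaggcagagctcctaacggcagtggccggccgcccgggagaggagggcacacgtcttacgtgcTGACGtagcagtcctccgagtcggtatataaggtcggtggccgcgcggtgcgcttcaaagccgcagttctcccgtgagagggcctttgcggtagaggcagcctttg
Ddx5: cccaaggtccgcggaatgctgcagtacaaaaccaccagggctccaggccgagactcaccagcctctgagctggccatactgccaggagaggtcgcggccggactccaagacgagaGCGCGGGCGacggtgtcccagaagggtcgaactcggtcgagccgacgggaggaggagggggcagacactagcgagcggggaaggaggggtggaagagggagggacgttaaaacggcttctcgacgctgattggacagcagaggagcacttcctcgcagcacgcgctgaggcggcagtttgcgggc
Ddx17: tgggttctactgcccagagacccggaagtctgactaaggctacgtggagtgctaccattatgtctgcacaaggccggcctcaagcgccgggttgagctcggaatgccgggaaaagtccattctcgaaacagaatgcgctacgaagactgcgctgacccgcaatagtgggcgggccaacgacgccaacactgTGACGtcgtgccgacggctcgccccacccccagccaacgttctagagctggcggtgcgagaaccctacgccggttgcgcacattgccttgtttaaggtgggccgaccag
Eif4a1: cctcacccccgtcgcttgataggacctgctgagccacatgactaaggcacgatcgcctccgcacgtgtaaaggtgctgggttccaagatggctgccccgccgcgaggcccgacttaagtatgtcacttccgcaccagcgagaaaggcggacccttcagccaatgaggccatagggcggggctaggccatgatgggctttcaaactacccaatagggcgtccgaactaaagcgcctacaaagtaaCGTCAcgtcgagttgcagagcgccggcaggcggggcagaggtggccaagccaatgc
This core was present in 6 of the 9 promoters (Ddx3x, Ddx17, Ddx21, Eif4a1, Eif4a2 and Eif4a3) and in 20.8% of all 32851 promoters in the table. The EGR motif was present in Ddx5 alone among the 9 and in 5.55% of all promoters. The AP-1 motif TGANTCA (7.81% of all promoters), the whole cyclic AMP response element TGACGTCA (1.79%), which contains the core, and the CArG box (1.63%) were in none of the 9. Counted from the RefSeq start used for the window, the core began 56 bases before the gene in Ddx3x, 59 in Ddx17 and 6 in Eif4a1, where it lies on the opposite strand. The RefSeq start of Ddx3x lies downstream of the GENCODE start given above, so the core is closer to the latter. GC content was 60.0% to 68.7% in the 9 promoters, with a median of 62.3%, against a median of 52.7% over all promoters. These matches describe the letters of the windows and are not measured binding sites.

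The first comparison asked how helicase RNA differed between TAM and oil microglia. Ddx3x, Ddx5 and Eif4a1 were lower and Ddx17 higher in TAM than in oil hashtags, without overlap, while Ddx6 differed by less than the spread between hashtags. Log2 fold changes, TAM over oil with their standard error (SE), were −0.45 ± 0.05 for Ddx3x, −0.41 ± 0.07 for Eif4a1, −0.34 ± 0.05 for Ddx5 and 0.22 ± 0.04 for Ddx17. In the edgeR quasi-likelihood fit over all genes, 4 of the 10 members had an adjusted p below 0.05, against 4.41% of the 11175 genes tested. The members were chosen on this contrast, so that count is no test of them. The median log2 fold was −0.14 over the 10 members and −0.00035 over all tested genes. A sum over the cells of a hashtag cannot tell fewer cells with a transcript from less of it per cell. Of all genes, 493 were called, and the count was 261 without Oil3, 287 without TAM3, 259 without TAM4, 259 without TAM5 and 7 without Oil1, Oil2 and Oil3 together. With the hashtag number as a block it was 860. With scaling by library size alone 354 of 611 called genes were higher, against 180 of 493 with the main scaling, and the all-gene median was 0.04; Ddx3x, Ddx5, Ddx17 and Eif4a1 kept their direction under it.

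Translation initiation at the mRNA cap depends on eIF4A, the helicase of the eIF4F complex, which is encoded by Eif4a1 and Eif4a2. Eif4a1 had 188, 188, 172, 167 and 165 CPM in TAM1 to TAM5, against 269, 247, 233, 216 and 209.8 CPM in Oil1 to Oil5. Every TAM hashtag was below every oil hashtag, and the order of the 10 hashtags by Eif4a1 was the same as their order by immediate early RNA. Mean levels were 176 ± 11.2 CPM in TAM hashtags and 235 ± 24.1 CPM in oil hashtags (SD, n = 5 each). Eif4a2, the paralogue that is also linked to microRNA-mediated repression, had 146, 164, 159, 153 and 142 CPM in TAM1 to TAM5, against 193, 185, 169, 153 and 159.9 CPM in Oil1 to Oil5. The treatments overlapped for Eif4a2, and its log2 fold was −0.17 ± 0.06. The ratio of Eif4a1 to Eif4a2 tags was 1.08 to 1.29 in TAM hashtags and 1.31 to 1.42 in oil hashtags, with a narrow gap between TAM1 and Oil5. It comes from values that served to choose the genes and from the uncertain Eif4a2 tags. No share over other gene pairs was computed, so nothing is read from it. Eif4a3 anchors the exon junction complex, which marks spliced mRNA for export and quality control. It had 51.4, 45.3, 53.2, 57.2 and 51.0 CPM in TAM1 to TAM5, against 57.8, 66.6, 55.8, 52.0 and 54.9 CPM in Oil1 to Oil5. The treatments overlapped, with a log2 fold of −0.14 ± 0.07.

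Ddx3x encodes a helicase that helps ribosomes scan structured leaders and also takes part in innate RNA sensing. It had 151, 145, 167, 153 and 163 CPM in TAM1 to TAM5, against 218, 206, 230.2, 206 and 209 CPM in Oil1 to Oil5. The highest TAM hashtag, TAM3, lay well below the lowest oil hashtag, Oil4, and the spread within each treatment was small. Mean levels were 156 ± 9.12 CPM in TAM hashtags and 214 ± 10.4 CPM in oil hashtags (SD, n = 5 each). In this gene the oil hashtags were not ordered by immediate early RNA: Oil3 was the highest, and Oil5 lay above Oil2 and Oil4.

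Ddx5 and Ddx17 encode p68 and p72, paralogous coactivators of transcription that also act in splicing and in the nuclear processing of microRNA precursors. Ddx5 had 853, 780.4, 838, 818 and 810.2 CPM in TAM1 to TAM5, against 1168, 1080.1, 995, 1048 and 910.3 CPM in Oil1 to Oil5. TAM hashtags were closely grouped, while oil hashtags spread over a wider range that ended just above the TAM hashtags in Oil5. Ddx17 had 186, 205, 197, 204 and 196 CPM in TAM1 to TAM5, against 172, 164, 169, 169.5 and 174 CPM in Oil1 to Oil5. It was the only member whose TAM hashtags all lay above all oil hashtags. The ratio of Ddx5 to Ddx17 tags was 3.80 to 4.58 in TAM hashtags and 5.24 to 6.79 in oil hashtags. With Ddx5 lower and Ddx17 higher in every TAM hashtag, this ratio could not overlap, so it adds nothing to the separate values.

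The other 4 members differed little. Ddx39b, the helicase of the TREX complex that hands spliced mRNA to the export receptor, had 90.5, 90.0, 91.0, 96.1 and 88.7 CPM in TAM1 to TAM5, against 96.3, 104, 103, 99.7 and 99.5 CPM in Oil1 to Oil5. Its highest TAM hashtag, TAM4, was just below its lowest oil hashtag, Oil1, and the log2 fold was −0.13 ± 0.05. Ddx24, a nucleolar helicase related to a yeast ribosome assembly factor, ranged over 119 to 129 CPM in TAM hashtags and 127 to 135 CPM in oil hashtags, with a log2 fold of −0.11 ± 0.04. Ddx21, a nucleolar helicase of ribosomal RNA synthesis, ranged over 58.9 to 72.0 CPM in TAM hashtags and 64.1 to 78.3 CPM in oil hashtags, with a log2 fold of −0.12 ± 0.07. For both the treatments overlapped. Ddx6, which holds repressed mRNA in P-bodies together with the CCR4-NOT deadenylase, ranged over 258 to 279.8 CPM in TAM hashtags and 262 to 282 CPM in oil hashtags, and its log2 fold of −0.01 ± 0.04 had a 95% interval of −0.09 to 0.07. By overlap alone, 4 members (Ddx3x, Ddx5, Ddx39b and Eif4a1) lay below oil in every TAM hashtag, as did 3.14% of all tested genes, and 1 (Ddx17) lay above, as did 2.13%.

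**Figure D1:**
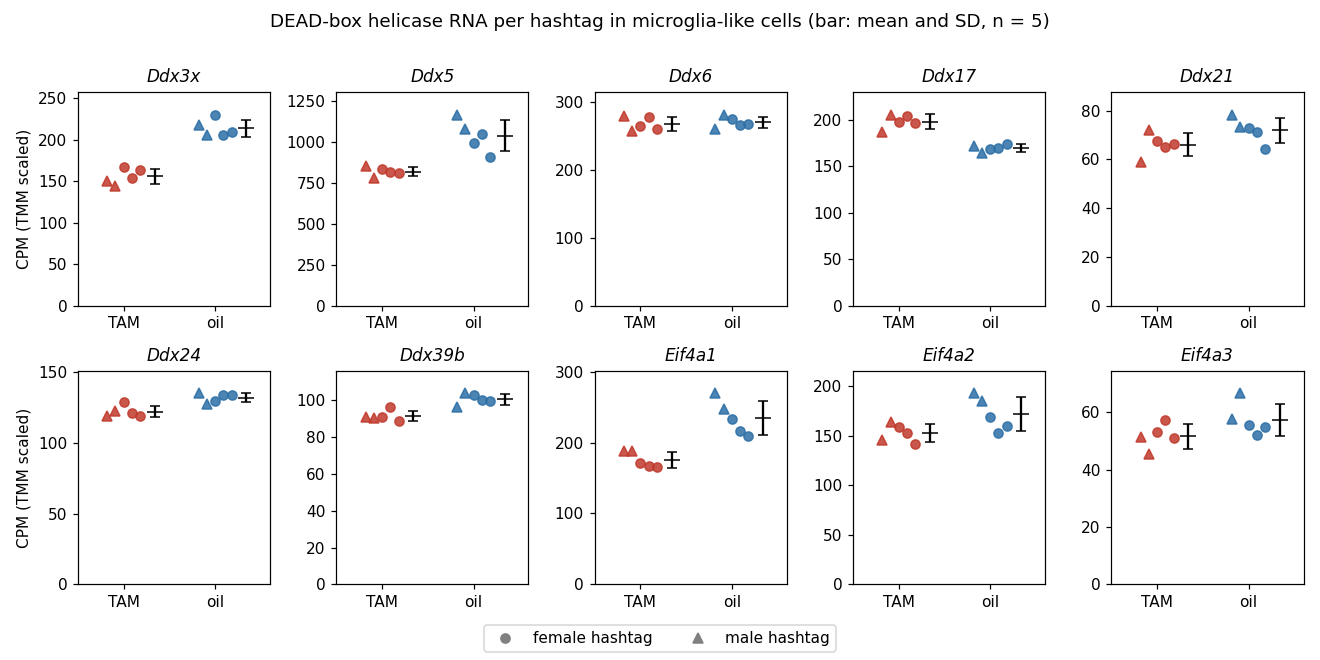
RNA of the 10 helicase genes in each hashtag, in scaled UMIs (CPM, TMM scaled, y axis from 0), TAM left and oil right, with circles for female and triangles for male hashtags and the black bar for the mean and SD (n = 5). Ddx3x, Ddx5, Eif4a1 and Ddx39b lie lower and Ddx17 higher in TAM without overlap, while the treatments overlap in the other 5.

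The TAM difference of the members was then set beside the immediate early level of the hashtags, which did not overlap between treatments. In cells without any immediate early UMI, Ddx3x was 152 to 178 CPM in TAM hashtags and 186 to 209.9 CPM in oil hashtags, with a log2 fold of −0.27 ± 0.06. In the same cells Eif4a1 was 173 to 189 CPM in TAM hashtags and 208 to 243 CPM in oil hashtags (−0.32 ± 0.06). For Ddx5 the values were 832 to 894 CPM in TAM hashtags and 918 to 1078 CPM in oil hashtags (−0.19 ± 0.05). The treatments stayed apart for these 3 genes in cells with no immediate early UMI, with smaller folds than over all cells. At this depth a cell with no such UMI can still hold immediate early RNA. Whether the treatments differ in it among these cells was not tested. Ddx17 overlapped there, at 184 to 214 CPM in TAM hashtags and 166 to 216 CPM in oil hashtags (0.17 ± 0.06), Oil1 being the highest. In this setting 92 genes were called.

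When the mean log2 CPM of the 5 immediate early genes in each hashtag entered the model, the log2 fold was −0.47 ± 0.09 for Ddx3x, 0.18 ± 0.08 for Ddx17, −0.15 ± 0.08 for Ddx5 and −0.09 ± 0.07 for Eif4a1. Ddx3x kept its size in that fit, whereas the folds of Ddx5 and Eif4a1 were much closer to 0, and 63 genes were called. Without Oil1, Oil2 and Oil3 the folds were −0.40 ± 0.06 for Ddx3x, 0.21 ± 0.06 for Ddx17, −0.25 ± 0.06 for Ddx5 and −0.27 ± 0.06 for Eif4a1. Eif4a2 was 0.05 ± 0.10 with the covariate and −0.03 ± 0.07 without the 3 hashtags. The immediate early level also runs with the number of the hashtag among the feature identifiers, so that treatment, hashtag number and immediate early level cannot be told apart.

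**Figure D2:**
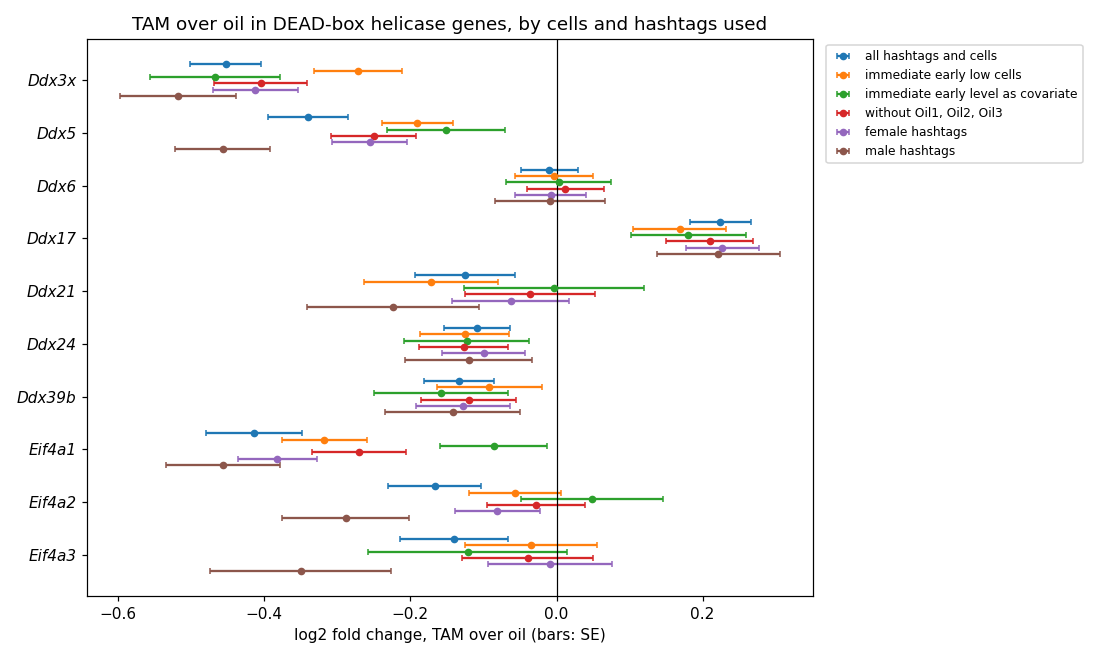
Log2 fold change of TAM over oil (x axis, bars SE) for each helicase gene, from all cells and hashtags, from cells without immediate early UMIs, with the immediate early level as covariate, without Oil1, Oil2 and Oil3, and in each sex alone. Ddx3x lies between −0.52 and −0.27 in all 6, while Eif4a1 moves to −0.09 with the covariate.

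The second comparison set cells with 5 or more UMIs of the 5 immediate early genes against cells with none, within each hashtag. These genes encode transcription factors and feedback regulators that are switched on within minutes of a stimulus. At least 20 cells of both classes were present in the 5 oil hashtags, with 22 to 335 high cells and 101 to 532 low cells, whereas TAM hashtags held 2 to 18 high cells. Of the 10 members, 3 were past the threshold of the all-gene fit, against 2.23% of 9120 genes, a count that is again no test because the contrast served to choose the genes. Of all genes, 203 were called, and 124 without Oil3. High cells were deeper, with medians of 5404 to 6133 UMIs against 4633.5 to 4769 UMIs in low cells.

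Ddx3x had 247, 252, 299.6, 229 and 329 CPM in the high cells of Oil1 to Oil5, against 189, 186, 195, 196 and 209.9 CPM in their low cells. It was higher in the high cells of all 5 hashtags, with a log2 fold of 0.48 ± 0.08. Ddx5 had 1314, 1200.5, 1184, 1199 and 1060.3 CPM in the high cells of Oil1 to Oil5, against 1019, 969, 927, 1078 and 918 CPM in their low cells. It too was higher in all 5 hashtags, at 0.30 ± 0.05. Eif4a1 had 308, 274, 263, 249 and 268 CPM in the high cells of Oil1 to Oil5, against 235, 243, 226, 208 and 214 CPM in their low cells. All 5 hashtags again pointed the same way, with a log2 fold of 0.27 ± 0.08. Leaving out 1 hashtag at a time gave 0.24 to 0.31, and all 14 alternatives 0.08 to 0.33. Eif4a1 stayed past the threshold in 3 of the 14, against 13 for Ddx3x and 14 for Ddx5, a description and no test. Eif4a2 was higher in high cells in all 5 hashtags as well, by 0.18 ± 0.09.

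The other 6 members did not share a direction across hashtags. Log2 folds were 0.13 ± 0.15 for Eif4a3, 0.13 ± 0.11 for Ddx39b, 0.01 ± 0.07 for Ddx6, −0.07 ± 0.09 for Ddx17, −0.09 ± 0.14 for Ddx21 and −0.11 ± 0.10 for Ddx24. Ddx17, the member that was higher in TAM, was higher in high cells in 2 hashtags and lower in 3. Ddx21 was lowest in the high cells of Oil5, at 20.1 CPM from only 22 cells. A window of depth narrowed the gap between the classes without closing it. Among cells of 4000 to 8000 UMIs, with medians of 5501 to 6126 UMIs in high cells and 4985 to 5167 UMIs in low cells of Oil1 to Oil4, and without Oil5, which kept 17 high cells, the folds were 0.47 ± 0.09 for Ddx3x, 0.32 ± 0.05 for Ddx5 and 0.24 ± 0.09 for Eif4a1. With every cell thinned to 2000 UMIs before the classes were made, which left Oil1, Oil2 and Oil3 with 20 high cells or more, they were 0.33 ± 0.21, 0.40 ± 0.10 and 0.08 ± 0.19 in the same order.

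Cells just below the cut-off, with 1 to 4 immediate early UMIs, were set against cells with none in all 10 hashtags, which added the TAM hashtags to the picture. None of the 10 members was called in either direction (edgeR, 3 of 10 at an unadjusted p under 0.05; DESeq2, 0), against 0.913% of 9635 genes. Ddx3x was higher in intermediate cells in 8 of 10 hashtags, by 0.11 ± 0.05. Eif4a1 was higher in 9 of 10, by 0.10 ± 0.05, and Ddx5 in 7 of 10, by 0.06 ± 0.03. The low cells are those of the comparison that served to choose the genes, so these values are a description too.

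The difference of that step between treatments was fitted as an interaction, TAM minus oil. This term did not itself choose the genes, but its low cells and the contrast of TAM and oil did. It is therefore no independent test of the members. None of the 10 members passed (edgeR, 1 of 10 at an unadjusted p under 0.05; DESeq2, 0), against 0.0519% of 9635 genes. The closest was Ddx5 at −0.16 ± 0.05 (adjusted p = 0.600, edgeR), with 879, 798, 889.9, 865 and 789 CPM in the intermediate cells of TAM1 to TAM5 and 894, 832, 879.8, 864 and 878 CPM in their low cells. In oil hashtags the intermediate cells held 1183, 1151, 1009, 1102 and 984 CPM and the low cells 1019, 969, 927, 1078 and 918 CPM. Intermediate cells were higher in all 5 oil hashtags and in 2 of the 5 TAM hashtags. For Ddx3x the interaction was −0.15 ± 0.09, with a 95% interval of −0.33 to 0.04.

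**Figure D3:**
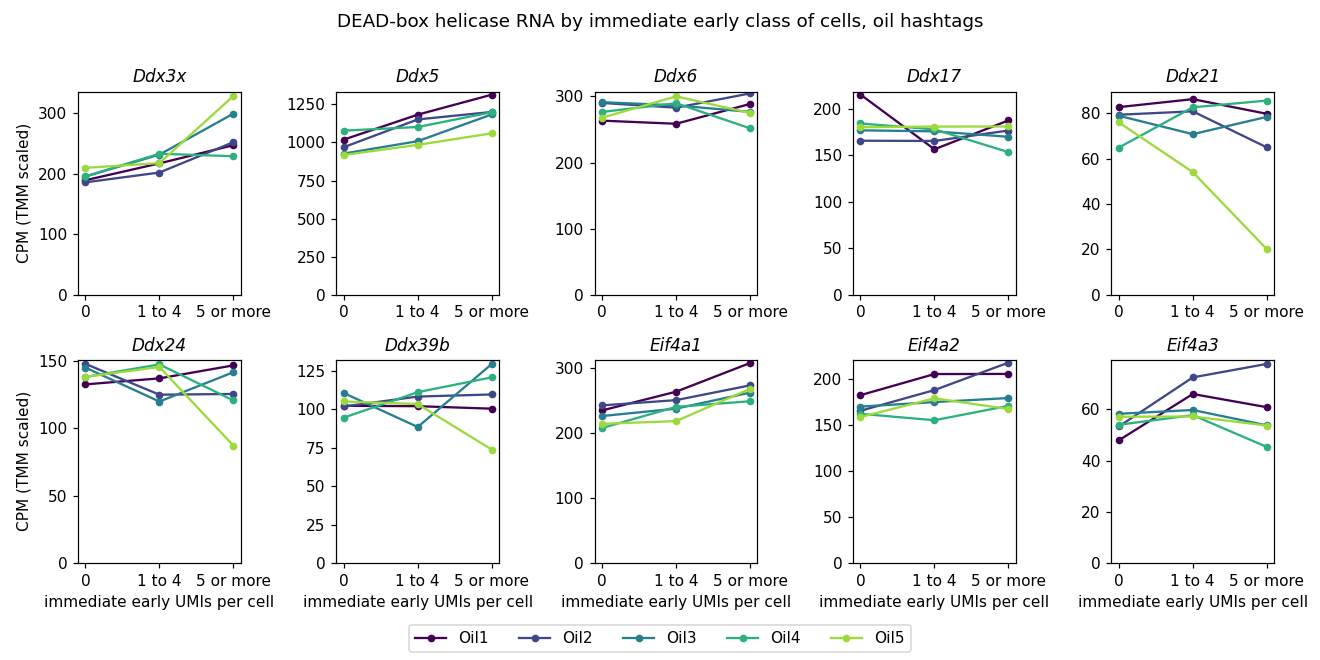
RNA of the 10 helicase genes (CPM, TMM scaled, y axis from 0) in cells with 0, 1 to 4 and 5 or more immediate early UMIs, 1 line per oil hashtag. Ddx3x, Ddx5, Eif4a1 and Eif4a2 are higher in the last class than in the first in all 5 hashtags, and Oil5 rests on 22 cells in the last class.

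Because Ddx3x is X-linked and has a Y-linked homologue, female and male hashtags were compared with treatment in the model, a contrast that had no part in the choice of genes. Ddx3y RNA was 0, 0.250 and 1.30 CPM in the female TAM hashtags and 0.674, 0.773 and 0.998 CPM in the female oil hashtags. As sex was read in part from this gene, its difference is given by rule and not as a result. In males it was 101 and 123 CPM in TAM1 and TAM2 and 101 and 104 CPM in Oil1 and Oil2. Ddx3x itself had 167, 153, 163, 230.2, 206 and 209 CPM in the 6 female hashtags TAM3 to TAM5 and Oil3 to Oil5. The 4 male hashtags TAM1, TAM2, Oil1 and Oil2 had 151, 145, 218 and 206 CPM. The log2 fold, female over male, was 0.07 ± 0.05 (adjusted p = 0.624, edgeR), with a 95% interval of −0.04 to 0.17. The X-linked genes Kdm5c, Kdm6a and Eif2s3x, which like Ddx3x are known in mice to be expressed also from the inactive X chromosome and have Y-linked homologues, were higher in females by 0.53 ± 0.06, 0.62 ± 0.06 and 0.53 ± 0.09 (adjusted p = 1.69e-05, 5.48e-06 and 0.00133). Their intervals, 0.41 to 0.66, 0.49 to 0.75 and 0.35 to 0.71, lie above that of Ddx3x, although the difference between genes was not tested. Ddx3x and Ddx3y together came to 167, 154 and 164 CPM in female TAM hashtags and 251 and 268 CPM in male TAM hashtags. In oil hashtags the sum was 231, 206 and 210.0 CPM in females and 319 and 309.9 CPM in males, so the summed tags of the pair were higher in every male than in any female hashtag of the same treatment, a difference that was not tested.

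**Figure D4:**
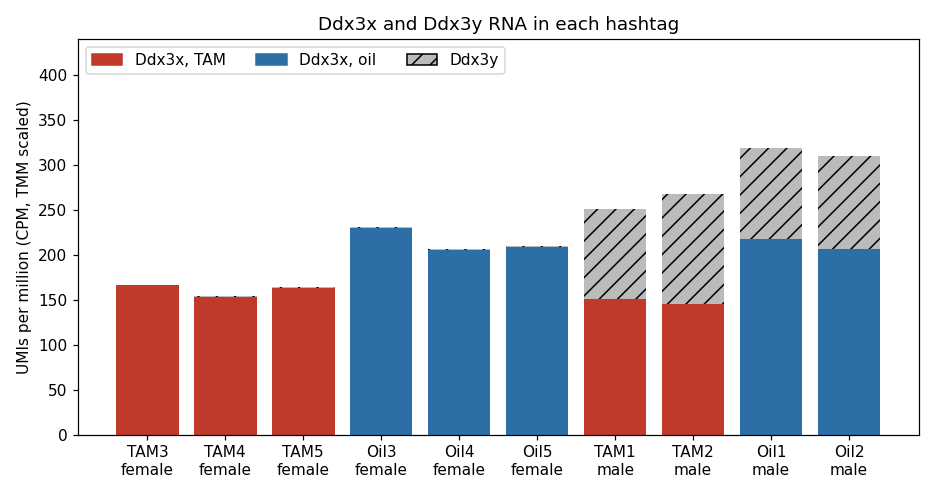
Ddx3x RNA (solid, red for TAM and blue for oil) with Ddx3y RNA stacked on it (hatched) in each hashtag, in CPM (TMM scaled), female hashtags left and male hashtags right. Ddx3x is close in both sexes within a treatment, and Ddx3y adds 101 to 123 CPM in males.

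Of the 10 members, 1 passed between the sexes, against 2.34% of 11334 genes. Eif4a1 was lower in females, with a log2 fold of −0.20 ± 0.05 (adjusted p = 0.0168, edgeR). All 6 female hashtags were below the males of the same treatment. The call was lost in 4 of 18 alternatives, which were without Oil1 (−0.17, adjusted p = 0.0881), TAM hashtags alone (−0.16, adjusted p = 0.258), oil hashtags alone (−0.24, adjusted p = 0.248) and cells without immediate early UMIs (−0.12, adjusted p = 0.449). Over these alternatives, DESeq2 among them, the adjusted p ran from 0.00495 to 0.449. Immediate early RNA was also lower in females, at 30.05 to 57.7 CPM in females and 111 to 129 CPM in males among TAM hashtags, and at 154 to 529.7 CPM in females and 604 to 1124 CPM in males among oil hashtags, so sex and immediate early level cannot be told apart here. For Eif4a2 the fold of −0.14 ± 0.06 missed the threshold (adjusted p = 0.253). The folds of the other 8 members lay between −0.10 and 0.07. Over all genes 265 were called, and 137 without Oil1, 168 without Oil4, 152 without TAM1 and 175 without TAM2.

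The TAM difference was compared between the sexes as an interaction, female minus male. None of the 10 members passed (edgeR, 2 of 10 at an unadjusted p under 0.05, Ddx5 and Eif4a3; DESeq2, 0), against 0.0179% of 11175 genes. Ddx3x had a TAM over oil fold of −0.41 ± 0.06 in females and −0.52 ± 0.08 in males, and the interaction of 0.11 ± 0.10 had an interval of −0.09 to 0.30. Ddx17 had 0.23 ± 0.05 in females and 0.22 ± 0.08 in males. Ddx5 had −0.26 ± 0.05 in females and −0.46 ± 0.06 in males, with an interaction of 0.20 ± 0.08 (adjusted p = 0.833, edgeR). Eif4a3 had −0.01 ± 0.08 in females and −0.35 ± 0.12 in males, with an interaction of 0.34 ± 0.14 (adjusted p = 0.833). Each treatment had 2 male and 3 female hashtags.

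Among microglia-like clusters the members did not follow a common pattern, and these levels are a description because the clusters were made from the same cells. Eif4a1 was highest in cluster 3, led by Spp1, Lpl, Gadd45b and Ccl3, at 483 CPM over its 220 cells and 376 to 614 CPM in TAM1 to TAM4, the 4 hashtags with at least 20 cells there. No oil hashtag had as many, so a level in oil cells of this cluster is not given. It was 232 CPM in cluster 0, led by Fos and Egr1, and 199 CPM in cluster 1, the largest. In cluster 2, led by Cxcl9, Chrm3 and Syt6, it was 156 CPM. Ddx21 was also highest in cluster 3, at 133 CPM, against 59.1 to 70.1 CPM in clusters 0, 1 and 2. Eif4a2 was not, at 154 CPM in cluster 3 and 156 to 176 CPM in those clusters. Ddx3x and Ddx5 were highest in cluster 0 among these 4, at 227 and 1108 CPM, and Ddx17 in cluster 2, at 212 CPM. TAM gave 179 of the 1768 cells of cluster 0 and 1689 of the 2262 cells of cluster 2, so cluster and treatment overlap. Within the largest cluster alone, with 1758 TAM and 1487 oil cells, the TAM folds were −0.35 ± 0.06 for Ddx3x, −0.32 ± 0.07 for Eif4a1, −0.18 ± 0.05 for Ddx5 and 0.21 ± 0.07 for Ddx17.

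The small clusters gave wider differences from few cells. In the 50 cells of cluster 7, led by the interferon-induced genes Ifit3 and Cxcl10, Ddx24 was 205 CPM and Ddx39b 143 CPM, above their levels in clusters 0 to 3. In the 59 dividing cells of cluster 6, led by Top2a and Mki67, Eif4a1 was 274 CPM and Ddx24 171 CPM. Cluster 5, unnamed for its median of 1469 UMIs, held 69.6 CPM of Eif4a1 and 17.4 CPM of Eif4a3, the lowest of any cluster, and 244 CPM of Ddx17, the highest.

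**Figure D5:**
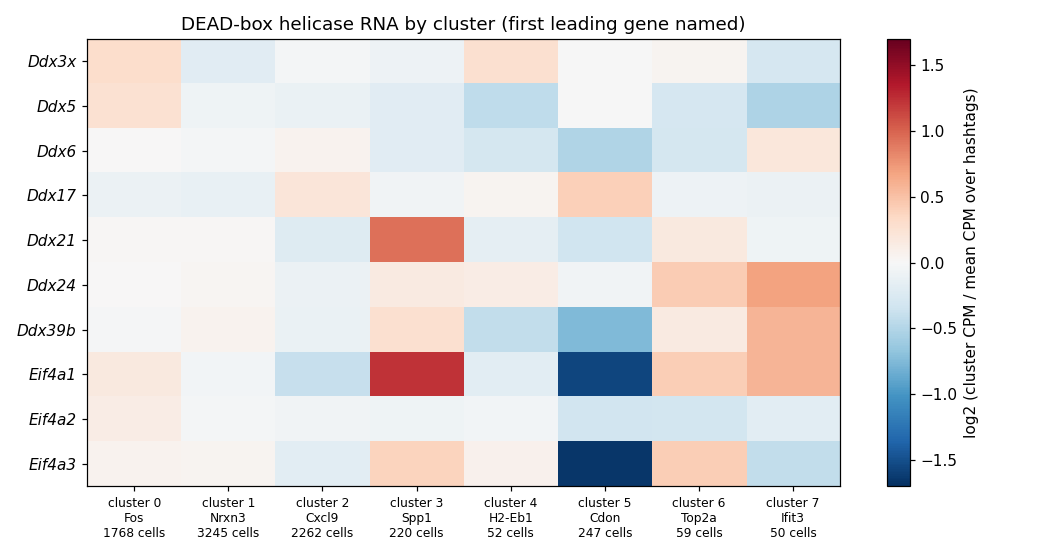
Log2 of the CPM of each helicase gene in a cluster over its mean CPM across hashtags, with the number of cells and the first leading gene of each cluster. Eif4a1 and Ddx21 stand out in cluster 3 (483 and 133 CPM), and clusters 4 and 5 were unnamed and left out of the sums.

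The share of cells with a UMI comes from the same tags as the sums, so it describes them in another way and is no separate support. Each cell was thinned to 2000 UMIs (3747 TAM and 3710 oil cells, with 90 TAM and 57 oil cells too shallow and left out). Ddx3x was found in 24.4% to 27.7% of cells in TAM hashtags and 28.1% to 34.2% in oil hashtags, without overlap. Unthinned, the shares were 47.8% to 53.3% in TAM hashtags and 55.8% to 60.6% in oil hashtags. For Eif4a1 the thinned shares were 27.7% to 29.7% of cells in TAM hashtags and 33.0% to 41.9% in oil hashtags. Ddx17 was found in 30.6% to 35.4% of cells in TAM hashtags and 25.1% to 27.9% in oil hashtags, again without overlap and in the other direction. Ddx5 was present in most cells, at 79.2% to 82.4% of cells in TAM hashtags and 82.1% to 88.2% in oil hashtags after thinning, which overlapped. As a measure of free RNA, Ddx3y was found in at most 0.555% of thinned cells in the 6 female hashtags, and Xist in 1.05% to 1.47% of those in male hashtags. Both genes differ in level from the members, so these shares set no bound for them.

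The partners of these enzymes were read from lists of known complex members in the same TAM and oil sums, where 4.41% of all tested genes were called. That fit had no block for hashtag number and no term for sex. The DEAD-box genes outside the 10 are those left after a choice that used this contrast. Their count is therefore no comparison with the members. Of 24 tested DEAD-box genes outside the 10, none was called in either direction (edgeR, 2 at an unadjusted p under 0.05, Ddx10 and Ddx50; DESeq2, 0), and their median log2 fold was 0.01. Of 16 DEAH-box genes, the sister family, none was called (1 at an unadjusted p under 0.05, Dhx9; DESeq2, 0), with a median of 0.04. Of 11 EIF4F partners, Pdcd4, which sequesters eIF4A, fell by 0.32 on the log2 scale to 97.3 ± 9.27 CPM in TAM hashtags, against 122 ± 7.64 CPM in oil hashtags (SE 0.07, adjusted p = 0.0134, edgeR). Of 12 exon junction complex genes, Rbm8a, a core partner of Eif4a3, fell by 0.33 (SE 0.07, adjusted p = 0.0168, edgeR). Of 13 TREX genes, which work with Ddx39b, the export adaptor Alyref2 fell by 0.38 (SE 0.10, adjusted p = 0.0457, edgeR). Of 14 nucleolar genes, Nop58 and Nolc1, which serve small nucleolar ribonucleoproteins, fell by 0.33 and 0.25 (adjusted p = 0.0379 and 0.0373, edgeR). Of 17 P-body and CCR4-NOT genes, which work with Ddx6, none was called (edgeR, 4 at an unadjusted p under 0.05, Cnot1, Cnot3, Dcp1a and Edc3; DESeq2, 0), with a median of 0.09. The medians of the other 4 lists were −0.04 for EIF4F partners, −0.01 for the exon junction complex, −0.04 for TREX and −0.06 for the nucleolar genes. DESeq2 called Pdcd4, Rbm8a and Nop58 but not Alyref2 or Nolc1. In high against low cells, the single list gene called was the nucleolar chaperone Npm1, which fell by 0.29 in high cells (adjusted p = 0.0430, edgeR) and was not called by DESeq2. Between the sexes it was Ddx3y, which is among the 4 Y-linked genes that assigned sex, so that its call was fixed in advance.

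Among 7085 genes with a mean of at least 20 CPM, those whose scaled log2 CPM over the 10 hashtags lay nearest to that of Ddx3x were Sdhb, a subunit of succinate dehydrogenase, Cnpy3, a chaperone of Toll-like receptors, and Ssu72, a phosphatase of RNA polymerase II. Their root mean square distances were 0.309, 0.323 and 0.335 SD units. Sdhb had 73.9, 66.3, 75.3, 71.2 and 70.5 CPM in TAM1 to TAM5, against 95.4, 85.4, 95.3, 82.7 and 82.8 CPM in Oil1 to Oil5. Like Ddx3x and 3.14% of all tested genes, it was lower in every TAM hashtag than in any oil hashtag. That goes with its choice by nearness to Ddx3x and is no result of its own.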

How the data were processed

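The deposited UMI counts are whole numbers for each gene and cell barcode of 1 pool. Cell Ranger 7.0.0 produced them, per the file headers, from a 10x 3′ v3.1 library, per the labels' protocols, and the submitters' processing notes name mm10. How reads matching several gene copies were counted is not given in the sources used here. Barcodes were assigned to hashtags with HTODemux (Seurat 5.3.0, quantile 0.99), which gave 8055 singlets, 1737 doublets and 183 barcodes without a hashtag. Doublets within a hashtag remain, and no further doublet caller was run. Singlets needed 500 genes, 1000 UMIs and at most 10% mitochondrial UMIs (7903 kept). They were clustered on 2000 variable genes, 30 components and 15 neighbours (Leiden, resolution 0.5, scanpy 1.11.5) into 8 clusters. A cluster was microglia-like when at least 3 of 14 markers were in 25% of its cells and their median share was at least 50%. A cluster with a median depth under 0.333 of that of all singlets kept and no marker among its 10 leading genes stayed unnamed. Cluster 4, led by MHC class II genes, missed the median share, and cluster 5 missed the depth.

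Raw counts were summed per hashtag, and per hashtag and immediate early class where both classes had 20 cells, and tested with edgeR 4.0.16 (TMM, filterByExpr, quasi-likelihood F test, Benjamini-Hochberg at 0.05 over all genes). The standard error is the absolute log2 fold over the square root of F, an approximation. Class fits had the hashtag as a block, and the comparison of sexes had treatment as a covariate. The main fit of TAM against oil had neither a block nor sex, and the calls of the lists rest on it. It called 493 genes, against 860 with the hashtag number as a block and 870 with sex as a covariate. List calls under those 2 alternatives are not given. DESeq2 1.42.0, no filter, other scalings, left-out hashtags, a hashtag quantile of 0.999 and other cells or covariates were alternatives. Deviations of same-numbered TAM and oil hashtags from their group means correlated at r = 0.205 to 0.535 in all 5 pairs, above the limit of 0.1 taken for pairing. Hashtags of the same sex with different numbers correlated at r = 0.151 to 0.405, and those of different sex at −0.456 to −0.166, so pairing by number and grouping by sex cannot be told apart. CPM values are TMM scaled, except by cluster and for immediate early sums, which are per total UMIs. Precision rests on 2124 to 36125 UMIs per member over all hashtags.

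The members, lists and tests were chosen with earlier results of these data known. Named were all 10 members, Ddx3y and 3 X and Y homologue pairs, up to 4 genes per list past the threshold, and the 3 genes nearest to Ddx3x. Of 28 listed other DEAD-box genes, 27 were in the table and 24 were tested. The comparison of protein sequences was replaced by coding sequences from GENCODE M21. Scripts were tested on simulated data.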

Additional observations from a re-analysis of the deposited data

How the results depend on the processing

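The direction of Ddx3x, Ddx5, Ddx17 and Eif4a1 between TAM and oil held in all 24 alternatives, with log2 folds of −0.52 to −0.27 for Ddx3x, −0.46 to −0.12 for Ddx5, 0.17 to 0.26 for Ddx17 and −0.46 to −0.05 for Eif4a1. Over the 10 members, 220 of 240 such folds moved by less than 1 SD and 20 by more. The count of TAM calls (493) was 834 with no filter, 860 with the replicate block, 870 with sex as a covariate, 63 with mean immediate early log2 CPM as a covariate and 37 with the feature number of the hashtag as one. It was 121 in male hashtags, 92 in low cells, 63 in the largest cluster, 7 without Oil1 to Oil3, a choice made after seeing the data, and 259 to 658 with 1 hashtag left out. The replicate block changed no call of the 10 members, which are described and not tested on this contrast. The count between the sexes (265) was 615 with no filter, 37 in oil hashtags, 137 in low cells and 137 to 351 with 1 hashtag left out. High against low cells (203) gave 111 with DESeq2, 110 with high cells from 10 UMIs, 40 after thinning and 124 to 230 with 1 hashtag left out. DESeq2 gave 48 calls for intermediate against low cells (88 by edgeR) and 2 for treatment by intermediate class (5 by edgeR); these 2 comparisons were added after seeing the data. The cause of these changes was not tested.

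Female over male folds near 0 changed sign. In TAM hashtags alone they were 0.0098 for Ddx5, 0.037 for Ddx21 and 0.15 for Eif4a3, in low cells 0.028 for Ddx6, 0.028 for Ddx21 and 0.14 for Eif4a3, and with the higher hashtag quantile they were 0.015 for Ddx6 and −0.0039 for Ddx39b. With 1 hashtag left out they ran from −0.033 to 0.0084 for Ddx6, −0.012 to 0.054 for Ddx17, −0.0036 to 0.036 for Ddx39b and −0.093 to 0.047 for Eif4a3. No paired analysis was possible for the sexes because the hashtag numbers are nested in sex. TAM against oil in high cells alone and treatment by high class were not run because no TAM hashtag had 20 high cells.

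The high class held as few as 22 cells in an oil hashtag, and each treatment had 2 male hashtags.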
